A study of Mus musculus with 35 samples.

Results

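The adipokine genes are genes for proteins that fat tissue releases into the blood or its surroundings. The 7 described here, Lep, Adipoq, Retn, Rbp4, Agt, Nampt and Apln, were listed by name as secreted adipokines, and their Ensembl identifiers were matched to mouse symbols. All 7 were among the 18947 genes of the authors' deposited mRNA table. The study set brown fat between the shoulder blades (iBAT) against epididymal white fat (eWAT) by mRNA sequencing, with 4 libraries of each. Both groups were male mice, 15 weeks old, called C57BL/6J in the protocol and C57BL/6 in the sample labels, with no genetic change or treatment given. Each library is of a whole fat depot, so fewer cells of a type and less RNA per cell cannot be told apart. No label ties the libraries to different mice. What the p-values measure is thus the spread between these libraries, which may be technical. The other 27 of the 35 samples, Argonaute crosslinking and microRNA libraries, were not used here.

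Adipokines carry the state of fat stores to other organs. Leptin signals the size of the fat store to the brain, adiponectin raises insulin sensitivity, and resistin opposes insulin action in mice. Retinol-binding protein 4 carries vitamin A in plasma, angiotensinogen is the precursor of the angiotensin peptides that raise blood pressure, and apelin is a peptide that acts on vessels and heart. Nampt makes the NAD precursor nicotinamide mononucleotide inside cells and is also found outside them, where it has been called visfatin. White adipocytes store lipid and are the textbook source of leptin, while brown adipocytes burn lipid for heat.

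The authors' deposited table gives each gene a base mean, which is the average normalized count over all libraries, and a log2 fold change with its standard error (SE). It also gives a p-value and an adjusted p-value, and a gene was called where the adjusted p was under 0.05. Values of single libraries and the depth of each library are unknown from this table, so no SD could be given and whether the groups overlapped could not be seen. No source used here says whether the fold changes were shrunk toward 0, in which case the printed folds and levels would understate the differences. The header names neither the groups nor the direction, and iBAT and eWAT are the groups with mRNA libraries. Ucp1 and Cidea, brown adipocyte genes, stood at 15.87 and 9.58 and Wt1, a gene of the lining of visceral organs, at -6.80 per the authors' deposited table, and positive values were therefore read as higher in iBAT. None of these is an adipokine gene. All 8 brown adipocyte markers were higher in iBAT (median 7.95) per the authors' deposited table, but Ucp1 and Cidea are among them and set the direction, so only the other 6 check the depot labels. Of all genes 48.0% were called per the authors' deposited table, 20.9% as higher in iBAT and 27.1% as lower, and the median log2 fold change was -0.10.

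Of the 7 adipokine genes 5 were lower in iBAT, 1 was higher and 1 was not called per the authors' deposited table, beside the 48.0% of all genes called. Their median log2 fold change was -2.77, with a range from -5.93 to 2.21. Agt was lowest, followed by Retn, Rbp4, Lep and Adipoq, while Nampt was the one higher gene and Apln the one without a call. The 95% intervals of Agt and Retn did not overlap, nor did those of Adipoq and Apln or of Apln and Nampt. Retn with Rbp4, Rbp4 with Lep, and Lep with Adipoq had overlapping intervals, so the order within each of these pairs is not resolved by these errors. The interval of Adipoq (-2.03 to -0.94) lay above those of Retn (-4.33 to -2.92) and Rbp4 (-3.81 to -2.53).

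**Figure D1:**
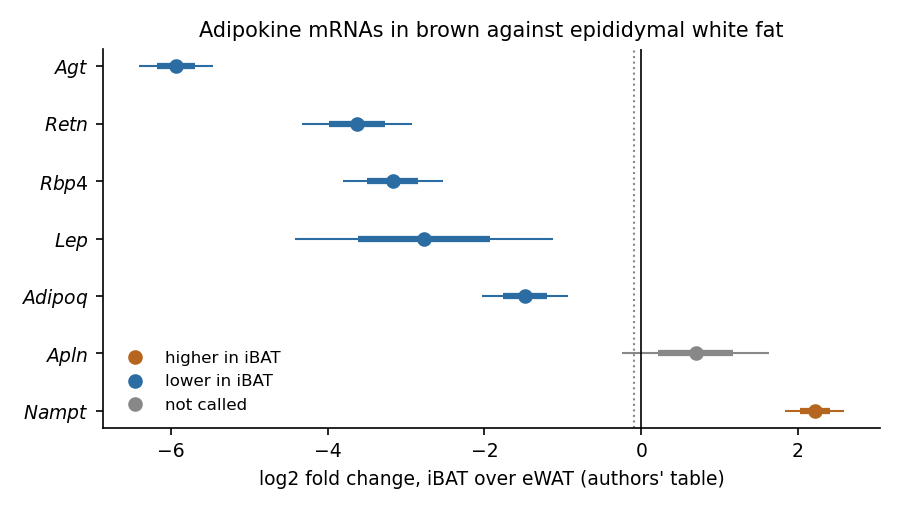
Log2 fold change of iBAT over eWAT (horizontal axis) for the 7 adipokine genes, from the authors' deposited table; thick bars are 1 SE, thin bars the 95% interval from that SE, and the dotted line is the median of all genes at -0.10. Agt lies at -5.93, apart from the other lower genes between -3.62 and -1.48, and Nampt lies at 2.21.

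The promoters of the genes at either end of this order, and of leptin and adiponectin, are shown so that the start of the lowest gene, the higher gene and both classic fat hormones can be compared. Each runs from 250 bases before to 50 bases from the annotated start, 5′ to 3′ on the gene's strand, from RefSeq on GRCm38.p6. All 7 genes matched this reference, with 8 windows since Rbp4 has an additional start. The windows are chr6:29059971-29060270 (plus strand) for Lep, chr16:23146286-23146585 (plus) for Adipoq, chr8:124569657-124569956 (minus) for Agt and chr12:32820085-32820384 (plus) for Nampt. Capitals mark the TATA box (letters TATAA), the CCAAT box (spelled by its name), the GC box (letters GGGCGG) and the palindrome bound by C/EBP factors (letters TTGCGCAA), each searched on both strands.
Agt: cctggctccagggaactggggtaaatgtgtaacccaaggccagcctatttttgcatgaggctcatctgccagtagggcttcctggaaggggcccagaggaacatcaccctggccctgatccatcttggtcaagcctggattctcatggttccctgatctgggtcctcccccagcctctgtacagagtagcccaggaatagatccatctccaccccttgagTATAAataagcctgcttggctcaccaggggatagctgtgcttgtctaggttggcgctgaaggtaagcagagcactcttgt
Lep: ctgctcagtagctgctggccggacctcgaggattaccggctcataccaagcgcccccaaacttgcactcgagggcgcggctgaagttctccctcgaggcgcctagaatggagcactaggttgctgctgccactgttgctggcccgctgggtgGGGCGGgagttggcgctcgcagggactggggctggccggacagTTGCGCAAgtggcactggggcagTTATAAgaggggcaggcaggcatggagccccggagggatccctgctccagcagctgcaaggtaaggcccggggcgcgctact
Adipoq: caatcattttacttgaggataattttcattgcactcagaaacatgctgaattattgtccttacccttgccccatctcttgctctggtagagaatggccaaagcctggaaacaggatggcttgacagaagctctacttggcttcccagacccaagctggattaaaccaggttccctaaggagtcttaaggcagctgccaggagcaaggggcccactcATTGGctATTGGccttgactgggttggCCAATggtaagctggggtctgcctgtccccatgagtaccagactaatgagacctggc
Nampt: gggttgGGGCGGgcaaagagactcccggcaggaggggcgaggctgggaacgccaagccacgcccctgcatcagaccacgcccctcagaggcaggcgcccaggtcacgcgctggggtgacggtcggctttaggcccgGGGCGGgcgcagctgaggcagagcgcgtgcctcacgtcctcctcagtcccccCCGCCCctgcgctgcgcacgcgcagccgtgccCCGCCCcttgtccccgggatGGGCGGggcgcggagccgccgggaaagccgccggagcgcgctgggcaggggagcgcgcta

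The Lep window held the C/EBP palindrome 55 bases before the start, a motif found in 0.183% of 32851 promoter windows, and TATA boxes on both strands in overlapping letters 32 and 31 bases before it. TATA boxes were found in 24.9% of all windows. Agt had a TATA box 30 bases before its start, and Rbp4 had one 28 bases before the downstream of its starts. Adipoq had CCAAT boxes 34, 27 and 7 bases before its start, where 37.4% of all windows had at least 1. Nampt had 5 GC boxes, a motif present in 35.7% of all windows, and neither a TATA nor a CCAAT box. The Retn window held none of these 4 motifs, and Apln held a single GC box. The E-box (letters CANNTG, in 72.3% of all windows) was found in every window of the 7 genes but the downstream one of Rbp4. The hypoxia response core (letters ACGTG, 19.6%) was found for Nampt and the downstream start of Rbp4, and the nuclear receptor half-site (letters AGGTCA, 16.3%) for Nampt alone among the 7 genes. Overlap was allowed between motifs, and a match of letters does not show that a factor binds there.

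The windows of Adipoq, Agt and Retn contained 0, 1 and 2 CpG dinucleotides, against a median of 7 over all windows. Those of Apln and Lep contained 15 and 19, that of Nampt contained 36, and the downstream start of Rbp4 had 40, more than 96.1% of all windows. The upstream start of Rbp4 had 5. The lower genes therefore included CpG-poor and CpG-rich starts, and the higher gene Nampt, with 76.3% G and C, had more G and C than 97.1% of all windows.

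Agt encodes angiotensinogen, a serpin-family protein from which renin cuts angiotensin I (ENSMUSG00000031980, GRCm38 chromosome 8, 124556587 to 124569706). Its base mean was 9731 per the authors' deposited table. Dividing the base mean between the groups by the fold change gave about 313 normalized counts per iBAT library and 19148 per eWAT library. Agt was 61.1-fold lower in iBAT, with a log2 fold change of -5.93 ± 0.24 (SE; adjusted p = 1.1e-129) per the authors' deposited table. The 95% interval from the SE was 43.9-fold to 85.1-fold. Ranked from the lowest log2 fold change, Agt took place 407 of 18947.

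The division assumes that the base mean is over the 4 and 4 libraries and that the fold change is the ratio of the group means. It gives levels without an error of their own, and they are approximate. Levels are per gene and not per length, so a gene's groups may be compared with each other but not the levels of different genes.

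Retn encodes resistin, a small cysteine-rich hormone made by adipocytes in mice (ENSMUSG00000012705, chromosome 8, 3655770 to 3659818). The approximate levels were 2862 normalized counts in iBAT and 35310 in eWAT. Retn was 12.3-fold lower in iBAT (log2 -3.62 ± 0.36, adjusted p = 1.52e-23) per the authors' deposited table, with an interval of 7.57-fold to 20.1-fold. Retnla, a paralog known from alternatively activated macrophages, was lower as well at -4.12 ± 0.44 (adjusted p = 6.91e-21) per the authors' deposited table. Retnlg, a paralog of neutrophils and marrow cells, stood at -1.19 ± 0.74 and was not called (adjusted p = 0.0713) per the authors' deposited table. Retnlb was not analysed here.

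Rbp4 encodes the retinol carrier of plasma, which liver and adipocytes make (ENSMUSG00000024990, chromosome 19, 38116620 to 38125321). Its approximate levels were 1196 normalized counts in iBAT and 10759 in eWAT. By the authors' deposited table Rbp4 was 9.0-fold lower in iBAT (log2 -3.17 ± 0.32, adjusted p = 4.53e-22), with an interval of 5.79-fold to 14.0-fold. Markers of hepatocytes, the other main source of Rbp4 and Agt, were lower in iBAT in 5 of 8 cases and higher in 1 per the authors' deposited table. Of all genes 48.0% were called and 27.1% lower. Only 2 of the 8 markers had a base mean of at least 50, and both were lower. Their summed approximate level was 8185 in iBAT and 129493 in eWAT, of which the transferrin gene Trf, also expressed outside the liver, made up 8111 and 128822. Alb, the albumin gene, had approximate levels of 11.1 and 559.7. The part of other cell types in the Rbp4 and Agt values was not tested.

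Lep encodes leptin (ENSMUSG00000059201, chromosome 6, 29060221 to 29073876). Its approximate levels were 4154 normalized counts in iBAT and 28311 in eWAT. Leptin mRNA was 6.82-fold lower in iBAT (log2 -2.77 ± 0.84, adjusted p = 0.000326) per the authors' deposited table, with the widest interval of the 7 genes on the log2 scale, 2.17-fold to 21.4-fold. This SE was larger than that of 99.4% of the 504 genes whose base mean lay within 2-fold of that of Lep, where the median SE was 0.22 per the authors' deposited table. The SEs of Retn and Rbp4 exceeded those of 94.2% and 91.1% of genes of like base mean per the authors' deposited table, while that of Nampt (0.19) lay below the median of such genes (0.22). The libraries therefore gave a less precise fold for leptin than for the other called adipokines.

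Adipoq encodes adiponectin (ENSMUSG00000022878, chromosome 16, 23146536 to 23157968) and had a base mean of 121382 normalized counts, place 26 among all genes per the authors' deposited table, with no correction for length. The approximate levels were 63913 in iBAT and 178850 in eWAT. Adiponectin mRNA was 2.80-fold lower in iBAT (log2 -1.48 ± 0.28, adjusted p = 1.85e-07) per the authors' deposited table, with an interval of 1.92-fold to 4.08-fold.

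Nampt encodes the rate-limiting enzyme of NAD salvage from nicotinamide (ENSMUSG00000020572, chromosome 12, 32820335 to 32853369). It was the one adipokine gene higher in iBAT, with approximate levels of 22989 normalized counts in iBAT and 4958 in eWAT. By the authors' deposited table its log2 fold change was 2.21 ± 0.19 (4.64-fold, adjusted p = 1.38e-29), with an interval of 3.56-fold to 6.03-fold. Ranked from the highest log2 fold change, Nampt took place 665. The long noncoding RNA gene Gdap10 overlaps Nampt in RefSeq and was not analysed here, and no source used here says whether the counting used strand, so reads of both may not be told apart. No other adipokine gene overlapped an annotated gene.

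Apln encodes apelin, made by adipocytes and by sprouting endothelial cells (ENSMUSG00000037010, chromosome X, 48025146 to 48034853). Its base mean of 265.1 lay below the median of all genes, 342.8, per the authors' deposited table. The approximate levels were 327.6 in iBAT and 202.6 in eWAT. Apelin mRNA stood at a log2 fold change of 0.69 ± 0.48 and was not called (adjusted p = 0.170) per the authors' deposited table. Its 95% interval ran from -0.24 to 1.63 on the log2 scale, so neither a small decrease nor a rise of up to 3.09-fold is outside these errors. Of 10 endothelial markers 2 were higher, 3 lower and 5 not called per the authors' deposited table, with summed approximate levels of 37389 in iBAT and 36862 in eWAT. Scaled to the summed level of all genes, a scale described next, none of these markers was higher and 8 were lower. On that scale 10859 of all 18947 genes were lower. Without the mitochondrially encoded genes in that sum, 2 were higher and 4 lower.

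**Figure D2:**
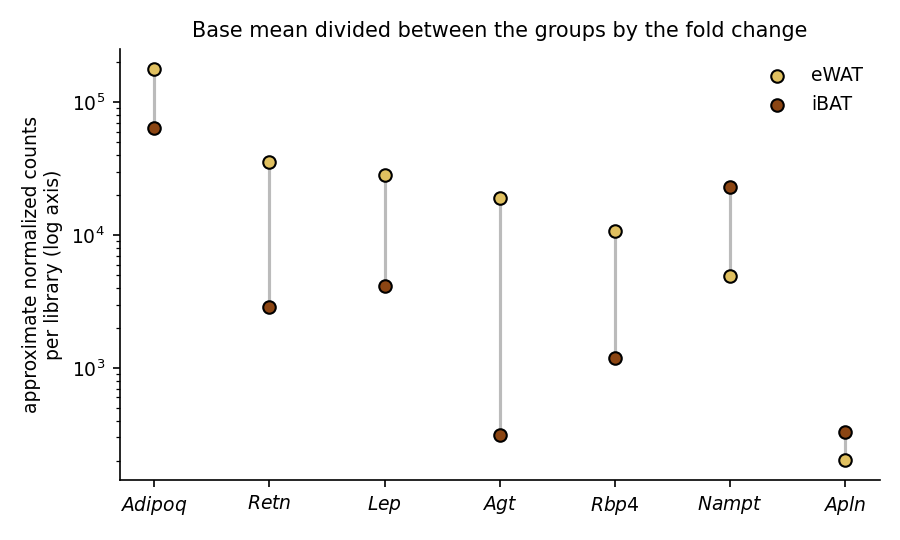
Approximate normalized counts per library (vertical axis, logarithmic) of the 7 adipokine genes in eWAT and iBAT, computed from base mean and fold change; the points carry no error of their own. Adipoq is 63913 in iBAT against 178850 in eWAT, Agt 313 against 19148, and Nampt 22989 against 4958.

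The values depend on how the libraries are scaled to each other. The summed approximate level of all genes was higher in iBAT than in eWAT by 0.97 on the log2 scale, and by 0.19 without the 13 mitochondrially encoded genes. Against the summed level of all genes, the log2 fold changes of Lep, Adipoq, Retn, Rbp4 and Agt were -3.74, -2.46, -4.60, -4.14 and -6.91. On that scale Nampt was still higher, at 1.24, and Apln, which was not called on either scale, turned to -0.28. The 6 calls held on both scales. Of all 18947 genes, 1072 were higher and 10859 lower against the summed level of all genes. Without the mitochondrially encoded genes in that sum, 2785 were higher and 5516 lower. Relative to the median of 10 adipocyte markers, which was -0.08, the 5 lower genes lay between -5.86 and -1.41 and Nampt at 2.29.

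**Figure D3:**
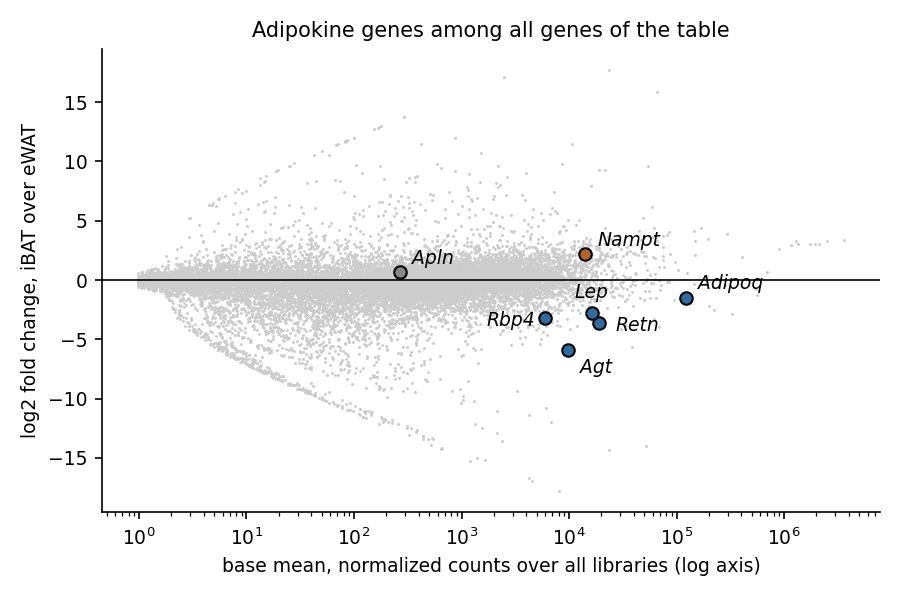
Base mean (horizontal axis, logarithmic, normalized counts) against log2 fold change of iBAT over eWAT for all 18947 genes in grey, with the 7 adipokine genes marked and coloured by call as lower (blue), higher (brown) or not called (grey). The 6 called genes have base means between 5977 and 121382. Apln lies near the middle in base mean (percentile 46.7) and at 0.69 in log2 fold change (percentile 82.0).

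Genes next to the adipokines on the chromosome were compared, since the rule did not use position. The nearest analysed gene 4.58 kb from Agt, Cog2, a Golgi transport gene, stood at 0.32 ± 0.14 (adjusted p = 0.0498), and Capn9 on the other side at -0.46 ± 0.61 (not called) per the authors' deposited table. Ffar4, a receptor for long-chain fatty acids that lies 2.36 kb from Rbp4, was lower in iBAT at -0.66 ± 0.29 (adjusted p = 0.0353) per the authors' deposited table. Mcemp1, a mast cell gene 5.94 kb from Retn, was lower at -2.07 ± 0.66 (adjusted p = 0.000931), while Stxbp2 on the other side was higher at 0.86 ± 0.20 (adjusted p = 4.69e-05) per the authors' deposited table. Both neighbours of Lep were lower, beside 27.1% of all genes. Rbm28, 49.7 kb away, stood at -1.15 ± 0.25 and Snd1, 125 kb away, at -0.71 ± 0.25 per the authors' deposited table. Cog2 and Stxbp2 lie below the shift of 0.97 and so would be negative against the summed level of all genes. Both lie above the shift of 0.19 found without the mitochondrially encoded genes. Of the 14 neighbours, which lay up to 437 kb away, the 12 beside a called adipokine all had a smaller log2 fold change in size than that adipokine. The called adipokines lay between percentiles 78.2 and 97.2 of all genes in that size. Most genes of any position would thus be smaller, and the count is no result about position. Beside Apln, Xpnpep2, an aminopeptidase gene, was lower at -1.27 ± 0.29 (adjusted p = 2.7e-05) and Ocrl stood at -0.12 ± 0.36 (not called) per the authors' deposited table.

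Of 13 genes for receptors through which the 7 adipokines act, 1 was higher in iBAT, 4 were lower and 8 were not called per the authors' deposited table, with a median of -0.29. These 5 calls of 13 stand beside 48.0% of all genes called and are no result about receptors as a group. Scaled to the summed level of all genes, none was higher and 9 were lower, beside 10859 of all 18947 genes lower. Without the mitochondrially encoded genes in that sum, 1 was higher and 6 were lower. Lepr, the leptin receptor, was lower at -1.45 ± 0.65 (adjusted p = 0.0162) per the authors' deposited table, but did not pass when p was taken from fold change and SE (adjusted p = 0.0577). Adipor1 was higher at 0.62 ± 0.13 (adjusted p = 4.49e-06) per the authors' deposited table and turned to -0.36 when scaled to the summed level of all genes. Without the mitochondrially encoded genes in that sum, Adipor1 stood at 0.42. Adipor2 (0.42 ± 0.27) and the adiponectin-binding cadherin gene Cdh13 (0.15 ± 0.24) were not called per the authors' deposited table.

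Stra6, a cell-surface receptor for retinol-binding protein, was lower at -3.30 ± 0.77 (adjusted p = 8.79e-06), and the related gene Stra6l at -1.59 ± 0.63 (adjusted p = 0.00754) per the authors' deposited table. Both had low base means, 22.4 and 23.8. Cap1, described as a receptor of human resistin, was lower at -0.70 ± 0.08 (adjusted p = 9.5e-16), and Tlr4 was not called (-0.51 ± 0.29) per the authors' deposited table. Of the angiotensin receptors, Agtr1a (-0.22 ± 0.13), Agtr1b (0.14 ± 0.92), Agtr2 (-1.01 ± 1.57) and Mas1 (0.81 ± 0.84) were not called per the authors' deposited table. Aplnr, the apelin receptor, stood at -0.29 ± 0.39 and was not called per the authors' deposited table.

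Genes that process angiotensinogen and its peptides were lower in iBAT in 6 of 12 cases, higher in 1 and not called in 5 per the authors' deposited table (median -0.42), beside 48.0% of all genes called and 27.1% lower. Scaled to the summed level of all genes, 9 were lower and 1 higher, beside 10859 of all 18947 genes lower and 1072 higher. Without the mitochondrially encoded genes in that sum, 7 were lower and 1 higher. Ace, the angiotensin-converting enzyme, was lower at -1.70 ± 0.30 (adjusted p = 2.45e-08), and so were Cma1, a mast cell chymase (-2.05 ± 0.75), and the aminopeptidase gene Anpep (-1.14 ± 0.23) per the authors' deposited table. The renin gene Ren1, at a base mean of 20.4, was lower at -1.13 ± 0.57 (adjusted p = 0.0402) per the authors' deposited table, but did not pass when p was taken from fold change and SE (adjusted p = 0.0948). Mme, neprilysin, which cleaves angiotensin and apelin peptides, was higher at 2.31 ± 0.59 (adjusted p = 5.8e-05) per the authors' deposited table. Of 4 genes of apelin processing and reception, Mme among them, 2 were higher and 2 not called per the authors' deposited table, beside 48.0% of all genes called. The other higher gene was Furin, the protease that cleaves the apelin precursor, at 1.08 ± 0.18 per the authors' deposited table. Scaled to the summed level of all genes, 1 of the 4 was higher and 1 lower, and Furin stood at 0.11. Without the mitochondrially encoded genes in that sum, 2 of the 4 were higher and none lower, and Furin stood at 0.89. Apela was not analysed here.

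Genes of NAD metabolism other than Nampt were higher in iBAT in 11 of 14 cases and lower in 2 per the authors' deposited table (median 0.88), beside 48.0% of all genes called and 20.9% higher. Scaled to the summed level of all genes, 3 were higher and 3 lower (median -0.09), beside 1072 of all 18947 genes higher and 10859 lower. Without the mitochondrially encoded genes in that sum, 10 were higher and 2 lower (median 0.69). Sirt3, a mitochondrial NAD-dependent deacylase, was higher at 2.64 ± 0.22 (adjusted p = 1.13e-31), as were Nadk2, the mitochondrial NAD kinase (1.65 ± 0.18), and Naprt (1.32 ± 0.26), which uses nicotinic acid, per the authors' deposited table. The largest value was that of Nmrk2, a nicotinamide riboside kinase of muscle, at 4.24 ± 0.54 (adjusted p = 7.63e-15) per the authors' deposited table. All 10 skeletal muscle markers were higher in iBAT as well (median 7.93), and their part in the Nmrk2 value was not tested. Nmnat2 (-3.33 ± 0.68) and Nnmt (-1.79 ± 0.38), which methylates nicotinamide, were lower per the authors' deposited table. Nampt, at 2.21, thus lay above all but Nmrk2 and Sirt3 among these genes.

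Genes of retinoid binding and conversion were lower in iBAT in 8 of 15 cases, like Rbp4, higher in 2 and not called in 5 per the authors' deposited table (median -1.58), beside 48.0% of all genes called and 27.1% lower. Scaled to the summed level of all genes, 13 were lower and 1 higher, beside 10859 of all 18947 genes lower and 1072 higher. Without the mitochondrially encoded genes in that sum, 8 were lower and 1 higher. Crabp1, an intracellular retinoic acid-binding protein, was lower at -5.97 ± 0.85 (adjusted p = 1.05e-11) per the authors' deposited table. Its base mean was 48.9 and its approximate level in iBAT 1.53, so the size of this fold rests on a level near 0. The retinoic acid synthesis genes Aldh1a2 (-5.08 ± 0.25) and Aldh1a1 (-3.87 ± 0.21) were lower too per the authors' deposited table. Rdh10, a retinol dehydrogenase, was higher at 0.54 ± 0.18 (adjusted p = 0.00573) and the receptor gene Rarb at 12.97 ± 3.13 (adjusted p = 2.94e-25) per the authors' deposited table. Rarb had an approximate level of 359 in iBAT and below 1 count in eWAT, so the size of its fold rests on a level near 0. Rdh10 turned to -0.43 when scaled to the summed level of all genes, and stood at 0.35 without the mitochondrially encoded genes in that sum. All 8 mesothelial markers were lower in iBAT (median -9.10, from the authors' deposited table), but Wt1 is among them and helped set the direction. The part of these markers in the Aldh1a2 value was not tested.

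Other adipokines, from a list that leaves the 7 genes out, were lower in iBAT in 11 of 20 cases, higher in 1 and not called in 8 per the authors' deposited table (median -1.43), beside 48.0% of all genes called and 27.1% lower. Sfrp5, a secreted Wnt inhibitor, was lower at -5.43 ± 0.85, Lcn2, lipocalin 2, at -4.37 ± 0.51, and Nucb2, the precursor of nesfatin, at -3.69 ± 0.34 per the authors' deposited table. Cfd, adipsin, with the largest base mean of the list (328110), was lower at -2.84 ± 0.31 (adjusted p = 2.32e-19) per the authors' deposited table. Nrg4, a neuregulin known as a brown fat secreted factor, was the one higher gene, at 1.54 ± 0.28 (adjusted p = 8.7e-08) per the authors' deposited table. Scaled to the summed level of all genes, Nrg4 stood at 0.57 and was not called, and 15 of the list were lower. On that scale 10859 of all 18947 genes were lower. Without the mitochondrially encoded genes in that sum, Nrg4 stood at 1.35, with 1 of the list higher and 11 lower. Fst, Il6 and Itln1 were not analysed here.

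**Figure D4:**
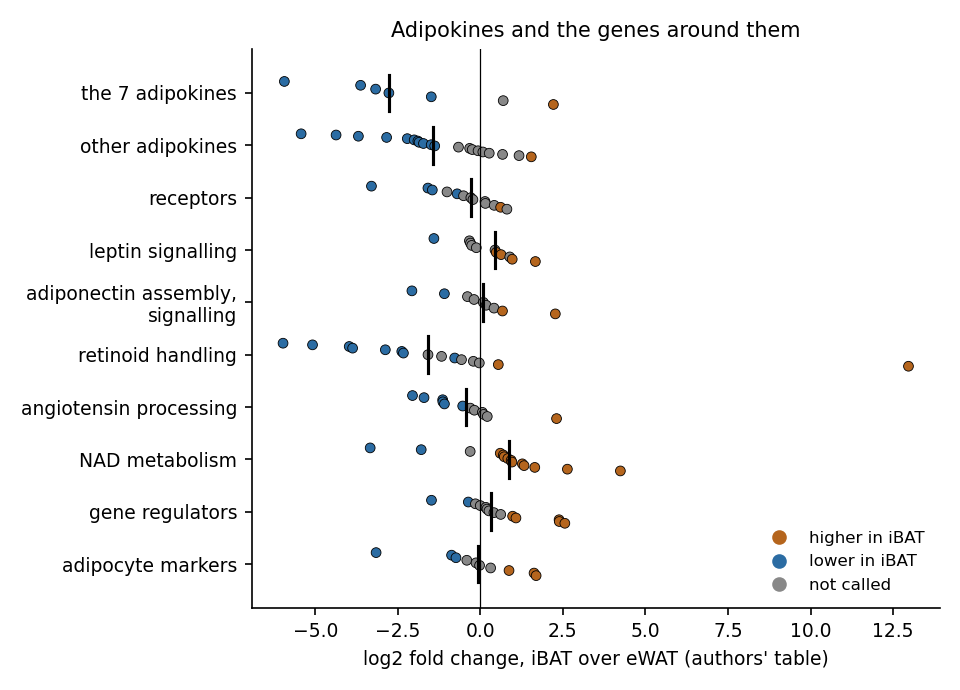
Log2 fold change of iBAT over eWAT (horizontal axis) from the authors' deposited table for the 7 adipokines, 8 lists of genes around them and adipocyte markers; each point is a gene, coloured by call, and the vertical bar is the list median. The adipokine medians lie at -2.77 and -1.43, that of the receptors at -0.29, and Rarb stands apart at 12.97.

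Downstream of the leptin receptor, 4 of 11 genes were higher, 1 lower and 6 not called per the authors' deposited table (median 0.45), a share near the 48.0% of all genes called. Socs3, an inhibitor that leptin signalling through Stat3 can induce, was lower at -1.41 ± 0.21 (adjusted p = 1.16e-10) per the authors' deposited table. Whether leptin signalling differed between the depots was not tested. The adaptor gene Sh2b1 (1.67 ± 0.23), Stat5a (0.97 ± 0.13), Stat5b (0.63 ± 0.15) and the phosphatase gene Ptpn2 (0.48 ± 0.14) were higher per the authors' deposited table. With scaling to the summed level of all genes, 1 of the 11 was higher and 7 were lower, and Stat5b and Ptpn2 turned to -0.35 and -0.49. On that scale 10859 of all 18947 genes were lower. Without the mitochondrially encoded genes in that sum, 3 were higher and 3 lower, and Stat5b and Ptpn2 stood at 0.44 and 0.29.

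Among 9 genes of adiponectin assembly and signalling, 2 were higher and 2 lower in iBAT per the authors' deposited table (median 0.09), a share near the 48.0% of all genes called. P4hb, an endoplasmic reticulum disulfide isomerase, was lower at -2.07 ± 0.23 (adjusted p = 1.68e-18), and Plod3, a lysyl hydroxylase that modifies collagen-like domains, at -1.09 ± 0.26 per the authors' deposited table. The AMP-activated kinase gene Prkaa2 was higher at 2.27 ± 0.32 (adjusted p = 4.4e-12) and Gstk1 at 0.67 ± 0.23 per the authors' deposited table. Gstk1 turned to -0.30 when scaled to the summed level of all genes, where 1 of the 9 was higher and 6 were lower. On that scale 10859 of all 18947 genes were lower. Without the mitochondrially encoded genes in that sum, Gstk1 stood at 0.48, with 1 of the 9 higher and 3 lower.

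Of 14 transcription factors that act on adipokine or adipocyte genes, 5 were higher, 2 lower and 7 not called per the authors' deposited table (median 0.34), a share near the 48.0% of all genes called. Pparg, the master regulator of adipocyte differentiation (0.41 ± 0.33, adjusted p = 0.276), and Cebpa (0.62 ± 0.29, adjusted p = 0.0537) were not called per the authors' deposited table (Pparg, Cebpa and Retnlg were picked for naming after their values were seen). Cebpb was higher at 2.39 ± 0.38 (adjusted p = 3.56e-10), with Esrra (2.56 ± 0.18), Prdm16 (2.39 ± 0.41) and Epas1 (1.08 ± 0.17), while Cebpd was lower at -1.48 ± 0.34 and Rxra at -0.36 ± 0.15 per the authors' deposited table. Scaled to the summed level of all genes, 3 of the 14 were higher and 6 lower, beside 1072 and 10859 of all 18947 genes. Without the mitochondrially encoded genes in that sum, 5 were higher and 2 lower.

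Counts of cell type markers stand beside 48.0% of all genes called, 20.9% higher and 27.1% lower. Of 10 adipocyte markers 3 were higher, 3 lower and 4 not called per the authors' deposited table. Scaled to the summed level of all genes, 2 were higher and 7 lower, beside 1072 and 10859 of all 18947 genes. Without the mitochondrially encoded genes in that sum, 3 were higher and 4 lower. Macrophage markers were lower in 9 of 10 cases (median -1.72) and fibroblast and progenitor markers in 10 of 10 (median -1.17), with summed approximate levels of 17954 against 81848 and of 59818 against 154762, computed from the authors' deposited table. Genes with high counts weigh most in such sums. In eWAT Lyz2 made up 37576 of the macrophage sum and Dcn 64217 of the fibroblast and progenitor sum. Epididymis markers were lower in 8 of 9 cases, with a summed approximate level of 13.2 in iBAT against 97102 in eWAT, computed from the authors' deposited table. Mesothelial markers summed to 330.2 and 16651, and skeletal muscle markers to 146857 and 1361, in iBAT and eWAT. Their part in the adipokine values was not tested.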

How the data were processed

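The mRNA values are those of 4 iBAT and 4 eWAT samples. Extraction used TRIzol and columns and library preparation a stranded total RNA kit, per the labels' protocols. Named without role or order in the submitters' processing notes are kallisto 0.45.0, DESeq2, DESeq, GRCm38 and mm10.

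The authors deposited for each of 18947 genes a base mean, a signal made by dividing counts by size factors and averaging all samples, per the file headers. Fold changes and SEs are on the log2 scale as the authors deposited them, per the file headers. The p-values and adjusted p-values were deposited by the authors, and no source used here gives the test behind them. Of all genes, 98.7% had a deposited p below that from fold change over SE, so intervals from the SE are approximate, and the deposited fold changes may have been shrunk, which was not tested. Recomputed Benjamini-Hochberg values differed from the deposited adjusted ones by at most 2.4e-07.

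Symbols were found for 18758 of the 18947 identifiers. Levels, intervals (95%) and alternatives were computed with Python 3.11.15, pandas 2.3.3 and scipy 1.17.1, and the adjustment was tested on simulated data. No columns of single libraries were at hand, so the count test foreseen for such values was not run. The members and lists were chosen with earlier results of these data known. Named are all 7 adipokine genes, the receptors, and up to 4 called genes per list and direction, of which some are not reported here. Ero1a and Tf were found as Ero1l and Trf.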

Additional observations from a re-analysis of the deposited data

How the results depend on the processing

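No paired analysis was possible because the table holds no value per library, and for the same reason no library could be left out and no genes of like pattern could be sought. Of the 7 adipokine genes 6 were called, 1 higher and 5 lower, under each of 7 alternatives: p from fold change over SE, centring on the median, an adjusted p under 0.01, a minimum log2 change of 1, a base mean of at least 50, and scaling to the summed level of all genes or of those not encoded in mitochondria. Both scalings were chosen after the data had been seen. Apln, not called under any of the 7 alternatives, turned from 0.69 to -0.28 with the summed level of all genes. Of all 18947 genes, 5790 were called at a minimum log2 change of 1 and 7336 at an adjusted p under 0.01. With the summed level of all genes 11931 were called, 10859 of them lower, so most genes were lower on that scale. The related genes had 65 calls of 111, 28 higher and 37 lower, beside 48.0% of all genes called. Under the alternatives they had from 48 calls, at a minimum log2 change of 1, to 80, with the summed level of all genes. The 48 stand beside 5790 and the 80 beside 11931 calls among all 18947 genes. At a base mean of at least 50 they had 61 calls of 93, beside 7672 of 13060 genes. The summed level without mitochondrially encoded genes gave 24 higher and 43 lower. Scaling to the summed level of all genes gave 10 higher and 70 lower. Over all genes this last scaling left 8.98% of calls higher, against 43.6%. Without values per library, depth and the spread between libraries cannot be judged gene by gene.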

Other observations

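Plin1, a lipid droplet coat gene used as a general adipocyte marker, stood at -3.16 ± 0.58 (SE) with a base mean of 2018.5 per the authors' deposited table. The other 9 adipocyte markers lay between -0.87 and 1.69 with base means from 5597 to 550801 per the authors' deposited table. Trf, the transferrin gene, which stood in the list of hepatocyte markers, had a base mean of 68466 and was lower in iBAT at -3.99 ± 0.26 (adjusted p = 3.74e-50) per the authors' deposited table. Ahsg, of the same list, had a base mean of 7.93 per the authors' deposited table.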
